A study of Mus musculus with 15 samples.

Results

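The 40 genes described here act in G2 and mitosis, and they were chosen by name as mitotic genes and matched by symbol to Ensembl identifiers. They are 40 of the 49315 genes in the count tables. Each had reads in all 15 libraries (lowest count 12, Ndc80) and passed the filter on low counts in every comparison.

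The libraries are polyadenylated RNA of primary myoblasts, the mononuclear precursors of muscle fibres, from muscle of wild-type C57BL/6J mice. The cells received small interfering RNA by lipid transfection, directed against Lmod1, which encodes an actin filament nucleator (siLmod1), against Sirt1, which encodes an NAD-dependent deacetylase (siSirt1), or a control RNA (siCtrl), and all were then kept for 1 day in differentiation. Each group holds 5 libraries numbered 1, 2, 3, 4 and 7, and the design text names 5 different primary lines, so a number is taken as 1 line in all 3 groups and each line gave 1 library per group. Counted reads per library ranged over 27135398 to 31829009 in siLmod1, 21004908 to 27815744 in siSirt1 and 26097889 to 33601761 in siCtrl. Lmod1 stood at 1.39 to 5.28 CPM (counts scaled to the library total) in siLmod1, 3.67 to 31.4 in siSirt1 and 5.77 to 41.0 in siCtrl. Sirt1 stood at 3.37 to 11.4 CPM in siSirt1, 27.1 to 52.4 in siLmod1 and 16.5 to 34.2 in siCtrl. All 9 myoblast and early myocyte markers were detected. Of 7 fibroblast markers, 4 had a mean count of at least 10, Tcf21 was at 0 in all libraries, and Dpt and Lum had mean counts under the floor of 3.

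A cell enters mitosis when the kinase Cdk1, held by its partner cyclins, becomes active, and it leaves mitosis when the anaphase-promoting complex, a ubiquitin ligase, destroys those cyclins. Most of the genes involved are transcribed late in the cycle, through the transcription factors FoxM1 and B-Myb, and are repressed in resting cells by the DREAM complex. Myoblasts leave the cell cycle for good as they become myocytes and fuse, so these transcripts are known to decline in differentiating muscle cultures.

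That regulation works at short promoter elements, so the promoters of the members were searched for the cell cycle homology region (TTTGAA, or TTCAAA on the other strand) and the CCAAT box (CCAAT, or ATTGG on the other strand). The promoters are those of RefSeq on GRCm38.p6, from 250 bases before to 50 bases after each annotated start. They covered 36 starts of 33 members. Ccna2, Aurkb, Cdca2, Kif20a, Tpx2, Dlgap5 and Foxm1 had no entry. The cell cycle homology region was present in 30 of the 36 promoters (83.3%), against 17.9% of 32851 mouse promoters of the same length. Within 50 bases of the start it was present in 26 (72.2%), against 4.94% of all promoters. A CCAAT box was present in 29 (80.6%), against 37.4% of all, and both elements in 26 (72.2%), against 6.95% of all. At least 2 CCAAT boxes were present in 21 (58.3%), against 11.7% of all. Birc5, Bub1, Ccnb1, Cenpe, Nuf2 and Nusap1 had no match to the cell cycle homology region in this window. These matches are letters in a sequence and no measure of binding.

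The following 5 promoters are shown because their genes span the range of responses below. Top2a and Kif23 had large differences in siLmod1, Ccnb2 had the largest in siSirt1, Cdk1 is the kinase that drives mitosis, and Bub3 had the smallest in siLmod1 with lines compared with themselves. Each is printed from 120 bases before to 30 bases after the start, 5′ to 3′ on the strand of the gene, with both elements in capitals on either strand. The last bases printed were found near the beginning of a GENCODE M21 transcript for Top2a, Cdk1 and Bub3, but not for Kif23 or Ccnb2. Positions in Kif23 and Ccnb2 therefore rest on the RefSeq start alone.
Top2a, chr11:99024160-99024309, minus strand: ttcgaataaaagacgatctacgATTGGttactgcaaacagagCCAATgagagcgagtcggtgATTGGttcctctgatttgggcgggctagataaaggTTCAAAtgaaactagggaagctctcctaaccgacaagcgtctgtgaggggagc
Kif23, chr9:61946770-61946919, minus strand: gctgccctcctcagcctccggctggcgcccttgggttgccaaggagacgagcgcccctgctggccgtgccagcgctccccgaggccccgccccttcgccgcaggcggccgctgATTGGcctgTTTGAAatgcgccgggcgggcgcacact
Ccnb2, chr9:70421525-70421674, minus strand: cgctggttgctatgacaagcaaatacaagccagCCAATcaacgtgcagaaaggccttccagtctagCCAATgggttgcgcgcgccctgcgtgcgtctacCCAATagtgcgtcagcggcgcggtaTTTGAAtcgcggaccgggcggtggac
Cdk1, chr10:69352883-69353032, minus strand: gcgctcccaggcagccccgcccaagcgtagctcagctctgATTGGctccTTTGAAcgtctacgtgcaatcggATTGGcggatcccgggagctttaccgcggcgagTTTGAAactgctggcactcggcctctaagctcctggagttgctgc
Bub3, chr7:131560250-131560399, plus strand: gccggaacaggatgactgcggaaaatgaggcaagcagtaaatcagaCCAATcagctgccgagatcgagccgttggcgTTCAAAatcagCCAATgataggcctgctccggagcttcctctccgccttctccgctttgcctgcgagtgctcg
Bub3, like Top2a and Kif23, holds a cell cycle homology region within 50 bases of its first listed start. From the second listed start of Bub3 the match lies at -167. In GENCODE M21 the Bub3 gene begins at 131560222, before the stretch printed.

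**Figure D1:**
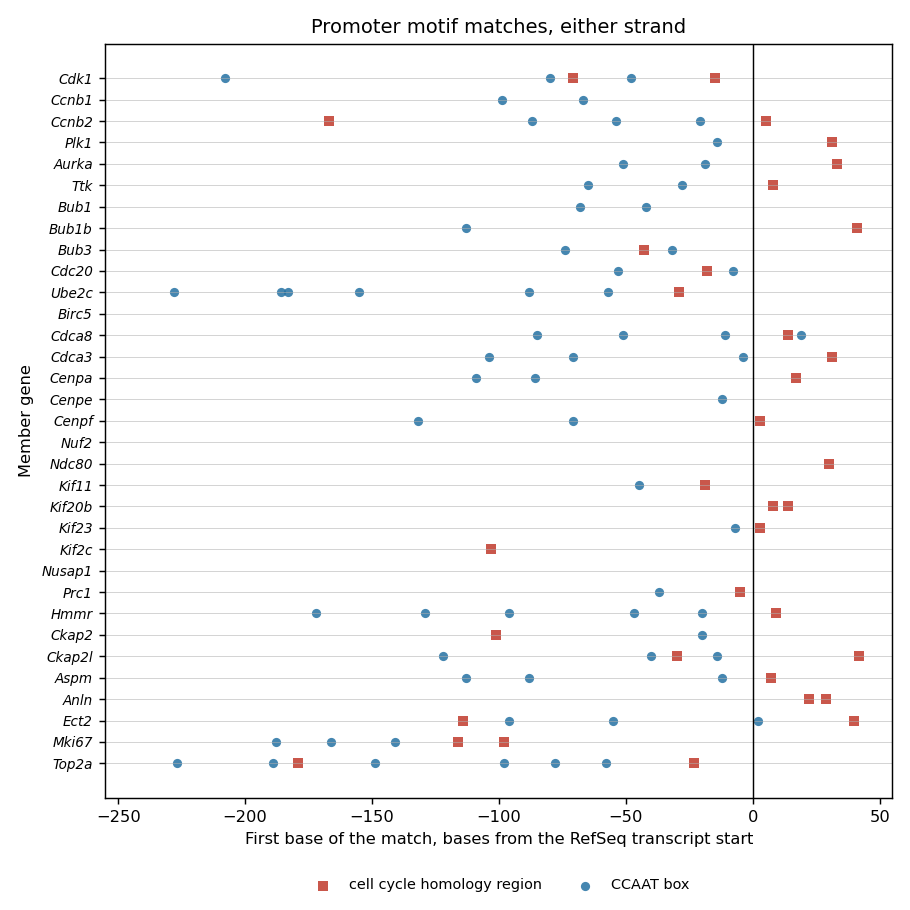
Position of each motif match in the promoters of 33 members, first listed start of each, in bases from the RefSeq transcript start (x axis), with squares for the cell cycle homology region and circles for the CCAAT box. Most squares lie close to the start line at 0 and most circles lie upstream of it, and Birc5, Nuf2 and Nusap1 have no match of either kind.

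The level of the members differed more between lines than between groups. Summed over the 40 members, CPM in lines 1, 2, 3, 4 and 7 were 395, 377, 252, 545 and 541 in siLmod1, 222, 439, 289, 606 and 970 in siSirt1, and 571, 501, 247, 593 and 1186 in siCtrl. The sum averaged 422 ± 123 CPM in siLmod1, 505 ± 299 in siSirt1 and 620 ± 345 in siCtrl (SD, n = 5), and the 3 groups overlapped. Without Ube2c, whose exons overlap those of a muscle gene (below), line 3 summed to 190 CPM in siLmod1 and 198 in siCtrl. The sum was then lower in siLmod1 than in siCtrl in 5 of 5 lines. Among the siCtrl libraries alone, the highest value of a member was 7.76 times the lowest as a median over the 40. The spread was least for Bub3, at 1.61 times, and widest for Dlgap5, which ran from 0.252 to 7.55 TPM in siCtrl. Line 7 of siCtrl had the highest value of all 15 libraries for 31 of 40 members. Line 3 was lowest of its group for 37 members in siCtrl and for 33 in siLmod1. In siSirt1 it was line 1 that was lowest of the group, for 27 members, and line 1 had the lowest value of all libraries for 15. Line 4 was highest for other genes: its siLmod1 library held the highest Prc1 and Cenpf of all 15, and its siCtrl library the highest Ccnb2 and Tpx2. In bulk RNA, fewer dividing cells and less of these RNAs per cell cannot be told apart.

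**Figure D2:**
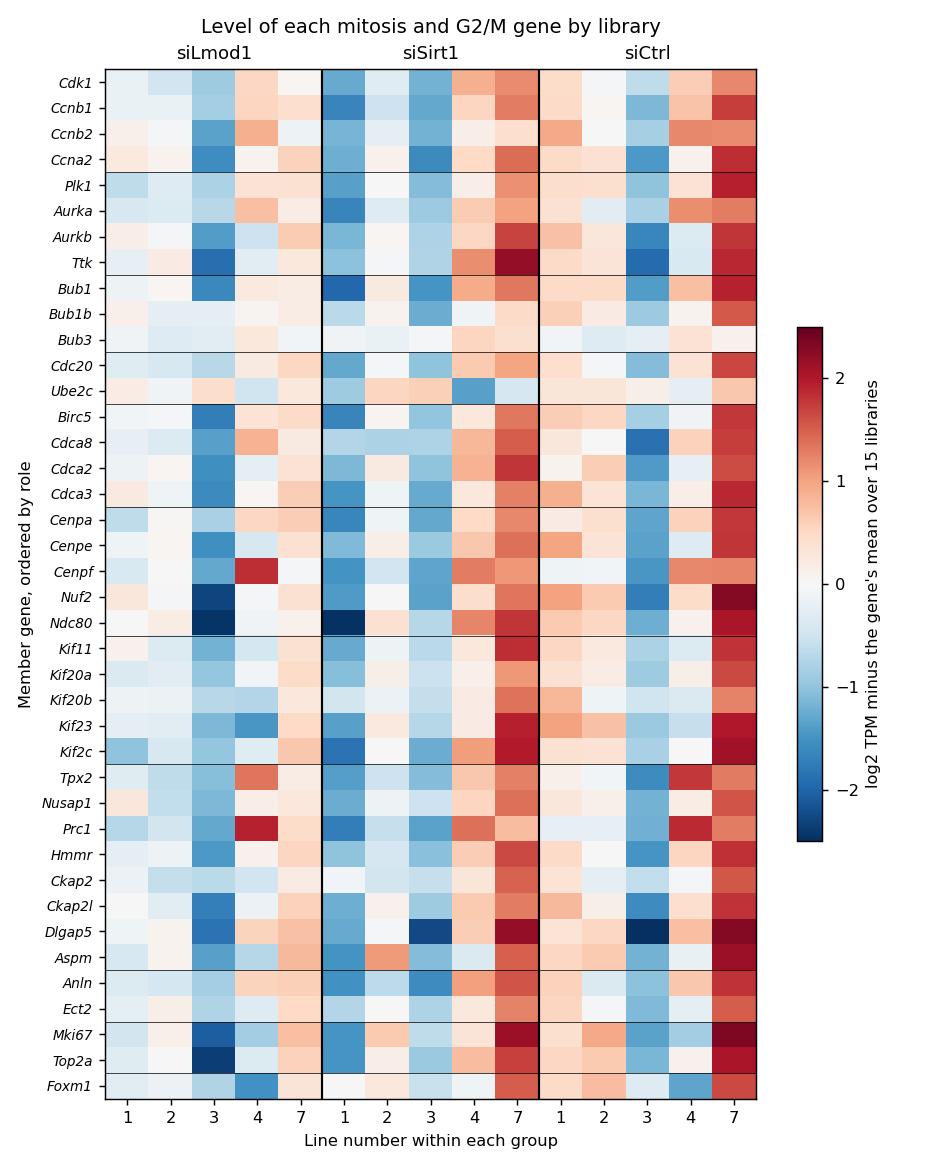
Level of the 40 members (rows, ordered by role) in the 15 libraries (columns, lines 1, 2, 3, 4 and 7 within siLmod1, siSirt1 and siCtrl), as log2 TPM minus the gene's mean over all libraries. Line 7 of siCtrl and of siSirt1 is high for nearly all members, line 3 is low in all 3 groups, and Ube2c and Bub3 follow another pattern.

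On a scale that allows for transcript length (TPM), the members ranged from 1.35 TPM (Ttk) to 60.3 TPM (Ube2c) as a mean over the 15 libraries. Bub3, at 30.2 TPM, Cdc20, at 20.4 TPM, and Ckap2, at 16.3 TPM, came next to Ube2c. Bub3 was also the steadiest, between 23.7 and 43.1 TPM, whereas Cdc20 ran from 7.17 to 55.8 TPM. These ranges overlap between neighbours in the order, so only the ends of it are apart.

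The comparison of siLmod1 with siCtrl addresses which transcripts of early differentiation depend on Lmod1. All 40 members had a fitted log2 fold change below 0. With lines compared with themselves, the kinesin Kif23, the topoisomerase Top2a, the proliferation antigen Mki67 and the transcription factor Foxm1 stood at 0.479, 0.514, 0.544 and 0.572 of their siCtrl level. Whether this counts as a change depends on how the line is treated. With the groups alone, edgeR's quasi-likelihood test called 0 of 40 members at a Benjamini-Hochberg adjusted p under 0.05, where it called 0.113% of all genes (17 of 15022, all lower). Before adjustment 0 of 40 members were under 0.05, against 8.99% of all genes. DESeq2 with the groups alone called 0, where it called 1.42% of all genes lower and 0.959% higher. With the line as a block, edgeR called 24 of 40 members lower and 0 higher, where it called 16.5% of all genes lower and 12.9% higher. The median log2 fold change of the members was -0.71 with the groups alone and -0.60 with the block, against -0.01 over all genes in both. With all 15 libraries in 1 blocked fit, 1 member (Foxm1) was called, where 5.26% of all genes were called lower. The blocked count was 14 without line 1, where 11% of all genes were called lower, and 15 without line 7, where 12.9% were. Without lines 2, 3 and 4 in turn it was 20, 31 and 25, where 13.7%, 14.1% and 15.4% of all genes were called lower. With the block and no filter on low counts it was 38, where 9.57% of all genes were called lower. The smallest adjusted p of a member was then 3.1e-31, against 0.00041 with the filter (Top2a in both). A p that small is not credible from 5 lines, so the calls made here with the block and no filter carry little weight. With the block and the filter, DESeq2 called 27 members lower and 0 higher, where it called 15.6% of all genes lower and 11.4% higher. Its smallest adjusted p of a member was 8.6e-14 (Top2a), which is also hard to credit from 5 lines, so the 27 adds little to the 24. The share of counts from mitochondrial genes was also higher in siLmod1 in 5 of 5 lines, at 2.40% to 3.30% in siLmod1 and 1.92% to 2.73% in siCtrl, and its part in the result was not tested. "Fell" and "rose" below refer to edgeR's blocked fit of the 2 groups compared, with the filter.

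By line, on the scaled CPM (library sizes adjusted by TMM), 22 members were lower in siLmod1 in 5 of 5 lines, against 18.6% of all genes, 14 in 4 lines and 4 in 3 lines. On the TPM scale 20 of these 22 were lower in every line, Bub3 and Prc1 being the exceptions by small amounts. Counts of lines below use the scaled CPM. The size of the difference varied between lines. Its median over the members, in log2 CPM, was -0.69, -0.49, -0.08, -0.24 and -1.28 in lines 1, 2, 3, 4 and 7. Line 3, with the lowest control level, had 23 members lower and 17 higher, and line 7, with the highest control level, had 40 of 40 lower. Leaving out the siCtrl library of line 7 took the median of the group-only fit to -0.24. With the block, leaving out line 7 took the median to -0.40. The groups overlapped for every member: none had all 5 siLmod1 libraries below all 5 siCtrl libraries, which 0.905% of all genes did, and none lay the other way, as 1.74% did.

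**Figure D3:**
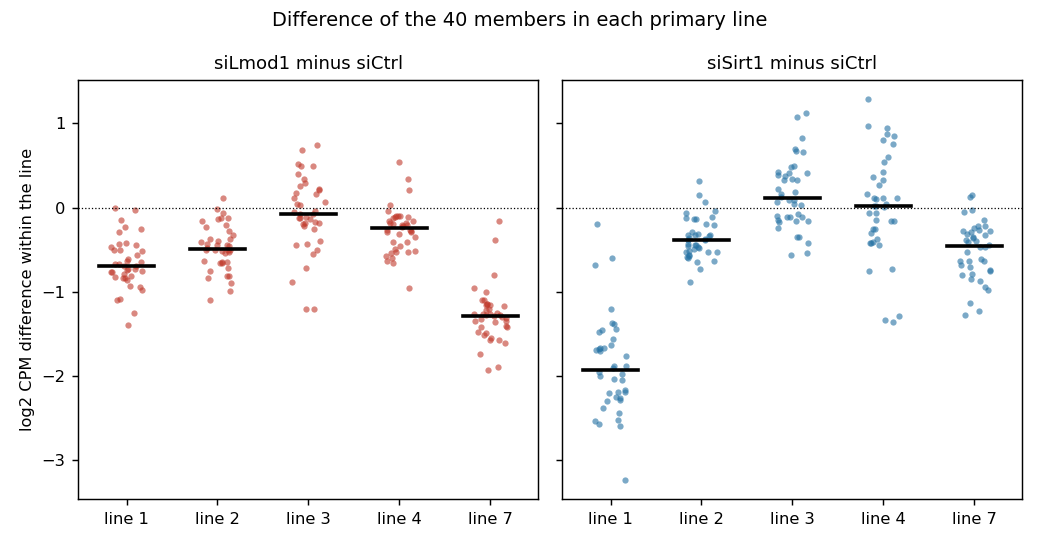
Difference of each of the 40 members within each primary line, in log2 CPM (y axis), for siLmod1 minus siCtrl (left) and siSirt1 minus siCtrl (right); points are members and bars are medians. In siLmod1 the medians run from -0.08 in line 3 to -1.28 in line 7, and in siSirt1 line 1 stands at -1.93 with the other lines between -0.45 and 0.11.

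Of the cyclins and their kinase, Cdk1 and Ccnb2 fell in siLmod1, and Ccnb1 and Ccna2 did not pass. Cdk1, the kinase that starts mitosis, had 10.4, 8.41, 6.32, 16.7 and 12.2 TPM in siLmod1 lines 1, 2, 3, 4 and 7, and 16.1, 11.4, 7.54, 17.98 and 26.99 TPM in siCtrl, with a blocked log2 fold change of -0.57 (SE 0.13, adjusted p = 0.0085). It was lower in siLmod1 in 5 of 5 lines, by most in line 7, while line 4 of siLmod1 stood above 3 of the siCtrl libraries. Ccnb2, a B-type cyclin, had 10.1, 8.94, 3.65, 17.1 and 8.498 TPM in siLmod1 and 17.7, 9.199, 5.21, 21.3 and 20.9 TPM in siCtrl, a difference of -0.65 (SE 0.16, adjusted p = 0.013). Line 7 carried the widest gap and line 2 almost none, with the direction shared by all 5 lines. Ccnb1, the main mitotic cyclin, had 4.74, 4.77, 2.94, 7.74 and 7.096 TPM in siLmod1 and 7.36, 5.49, 2.45, 8.71 and 17.7 TPM in siCtrl, at -0.50 (SE 0.18, adjusted p = 0.066). It was higher in siLmod1 in line 3, the line with the least of it among the controls. Ccna2, the cyclin of S phase and early mitosis, was lower in 5 of 5 lines at -0.47 (SE 0.16, adjusted p = 0.051), and part of its exons (12.5%) lie on those of Exosc9 on the other strand, which these unstranded libraries cannot separate.

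Plk1 and Aurka fell among the 4 mitotic kinases. Plk1, which drives entry, centrosome maturation and chromosome segregation, had 4.46, 5.496, 3.98, 8.901 and 9.04 TPM in siLmod1 and 9.41, 9.17, 3.45, 8.92 and 26.6 TPM in siCtrl, at -0.72 (SE 0.23, adjusted p = 0.036). The siCtrl library of line 7 lay far above the other 14 libraries, lines 1 and 2 were lower in siLmod1, line 3 was higher, and line 4 hardly differed. Aurka, the spindle pole kinase, was at -0.52 (SE 0.17, adjusted p = 0.037). Aurkb, the kinase of the chromosomal passenger complex, was at -0.52 (SE 0.18, adjusted p = 0.057) and Ttk, the checkpoint kinase Mps1, at -0.60 (SE 0.26, adjusted p = 0.11), so neither passed.

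Of the spindle checkpoint genes, the kinase Bub1 fell, at -0.80 (SE 0.20, adjusted p = 0.013), and its relative Bub1b (BubR1) was at -0.39 (SE 0.22, adjusted p = 0.21). Bub3, the adaptor that brings both to kinetochores, had 27.99, 23.9, 24.6, 35.6 and 28.4 TPM in siLmod1 and 28.3, 23.7, 25.4, 38.1 and 31.9 TPM in siCtrl, at -0.11 (SE 0.05, adjusted p = 0.13). Its libraries overlapped almost wholly, and it had the smallest blocked difference of the 40. Bub1b had 6.71, 5.23, 5.26, 6.39 and 6.92 TPM in siLmod1 and 9.24, 7.01, 3.27, 6.54 and 17.7 TPM in siCtrl, so it was flat across the siLmod1 lines while siCtrl ran from line 3 to line 7. Cdc20, the activator of the anaphase-promoting complex, had 14.2, 13.2, 10.8, 20.4 and 24.9 TPM in siLmod1 and 23.4, 16.96, 8.22, 22.4 and 55.8 TPM in siCtrl, at -0.48 (SE 0.18, adjusted p = 0.069). Lines 1, 2, 4 and 7 were lower and line 3 higher.

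Ube2c, the ubiquitin-conjugating enzyme of the same complex, was the one member whose reads overlap a muscle gene. Of its 2600 exon bases, 592 (22.8%) lie on exons of Tnnc2, fast troponin C, on the opposite strand. Its level was 7.62% to 15.8% of the TPM of Tnnc2 over the libraries. Ube2c had 64.01, 53.1, 76.9, 40.1 and 68.05 TPM in siLmod1, 30.6, 82.4, 84.98, 22.1 and 42.2 TPM in siSirt1 and 70.1, 69.9, 62.8, 48.1 and 89.7 TPM in siCtrl. It was lowest in line 4 in each group, and in siLmod1 and siSirt1 it was highest in line 3, where most members were low. It did not pass in siLmod1, at -0.22 (SE 0.10, adjusted p = 0.12), or in siSirt1, at -0.68 (SE 0.30, adjusted p = 0.2), and how much of its signal came from Tnnc2 was not tested.

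Birc5 (survivin) and Cdca8 (borealin) belong to the chromosomal passenger complex, and Cdca2 and Cdca3 are other division genes of the Cdca group. Birc5 was at -0.65 (SE 0.20, adjusted p = 0.032) and Cdca3 at -0.66 (SE 0.14, adjusted p = 0.007), while Cdca8, at -0.42, and Cdca2, at -0.53, did not pass. Of 5 kinetochore genes, 3 fell: Nuf2, at -0.98 (SE 0.20, adjusted p = 0.0057), and Ndc80, at -0.91 (SE 0.24, adjusted p = 0.017), which are partners in the complex that holds microtubules, and the motor Cenpe, at -0.71 (SE 0.18, adjusted p = 0.015). All 3 were lower in 5 of 5 lines. The centromeric histone Cenpa was at -0.48 (SE 0.20, adjusted p = 0.094), and Cenpf at -0.18 (SE 0.21, adjusted p = 0.56) with 3 lines lower and 2 higher.

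All 5 kinesins fell, each lower in 5 of 5 lines, with log2 fold changes between -1.06 and -0.57. Kif23, the motor of the central spindle, had 2.47, 2.396, 1.34, 1.06 and 4.07 TPM in siLmod1 and 5.83, 4.85, 1.53, 1.95 and 11.7 TPM in siCtrl, at -1.06 (SE 0.16, adjusted p = 0.001). The difference exceeded 2-fold in lines 1, 2 and 7, and line 3 differed least. Kif2c, which removes tubulin at centromeres, was at -0.89 (SE 0.20, adjusted p = 0.0074), and Kif11, which pushes spindle poles apart, at -0.65 (SE 0.16, adjusted p = 0.013). Kif20a, of cytokinesis, was at -0.60 (SE 0.14, adjusted p = 0.01), and 29.3% of its exon bases lie on exons of Cdc23 on the other strand. Kif20b was at -0.57 (SE 0.15, adjusted p = 0.019).

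Of 8 spindle proteins, 6 fell: Aspm, Ckap2l, Hmmr, Ckap2, Tpx2 and Prc1. Aspm, a spindle pole protein, was at -0.80 (SE 0.15, adjusted p = 0.0029) and Ckap2l at -0.73 (SE 0.14, adjusted p = 0.0043). Ckap2, which binds spindle microtubules, had 12.9, 9.41, 8.95, 10.3 and 16.4 TPM in siLmod1 and 18.2, 12.2, 9.31, 13.8 and 42.1 TPM in siCtrl, at -0.61 (SE 0.15, adjusted p = 0.014). In line 7 the siCtrl value was far above the siLmod1 value, and in line 3 both were alike. Prc1, which bundles the microtubules of the central spindle, had 3.799, 4.51, 2.55, 23.5 and 8.57 TPM in siLmod1 and 5.41, 5.34, 2.69, 22.6 and 14.99 TPM in siCtrl. Line 4 was the highest in both groups, so only the comparison within lines separated them, at -0.37 (SE 0.11, adjusted p = 0.029), and with the groups alone it was at -0.31 (SE 0.74, adjusted p = 0.97). Of its exon bases, 11.1% lie on those of Rccd1 on the other strand. Nusap1, at -0.47 (SE 0.20, adjusted p = 0.1), and Dlgap5, at -0.59 (SE 0.24, adjusted p = 0.091), did not pass, nor did the cytokinesis genes Anln (anillin), at -0.51 (SE 0.18, adjusted p = 0.053), and Ect2, which activates RhoA, at -0.34 (SE 0.18, adjusted p = 0.2).

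The chromosome and proliferation genes and the transcription factor were among the members with the smallest adjusted p. Top2a, which untangles sister chromatids, had 6.902, 8.57, 1.67, 6.76 and 12.7 TPM in siLmod1 and 12.3, 13.3, 3.85, 9.19 and 35.4 TPM in siCtrl, at -0.96 (SE 0.12, adjusted p = 0.00041). Each line was lower, line 4 by least, and the siLmod1 library of line 7 was above the median of siCtrl. Mki67, the antigen Ki-67 of dividing cells, had 5.87, 8.802, 1.92, 4.39 and 13.6 TPM in siLmod1 and 10.6, 15.5, 3.17, 4.43 and 40.7 TPM in siCtrl, at -0.88 (SE 0.16, adjusted p = 0.0027). Line 4 was equal between the groups and line 7 differed most. Foxm1, an activator of many of the other members, had 5.69, 6.15, 4.08, 2.403 and 8.51 TPM in siLmod1 and 9.57, 11.6, 5.49, 2.74 and 21.4 TPM in siCtrl, at -0.81 (SE 0.14, adjusted p = 0.002). Line 4 had the least Foxm1 of both groups and the most Ccnb2.

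**Figure D4:**
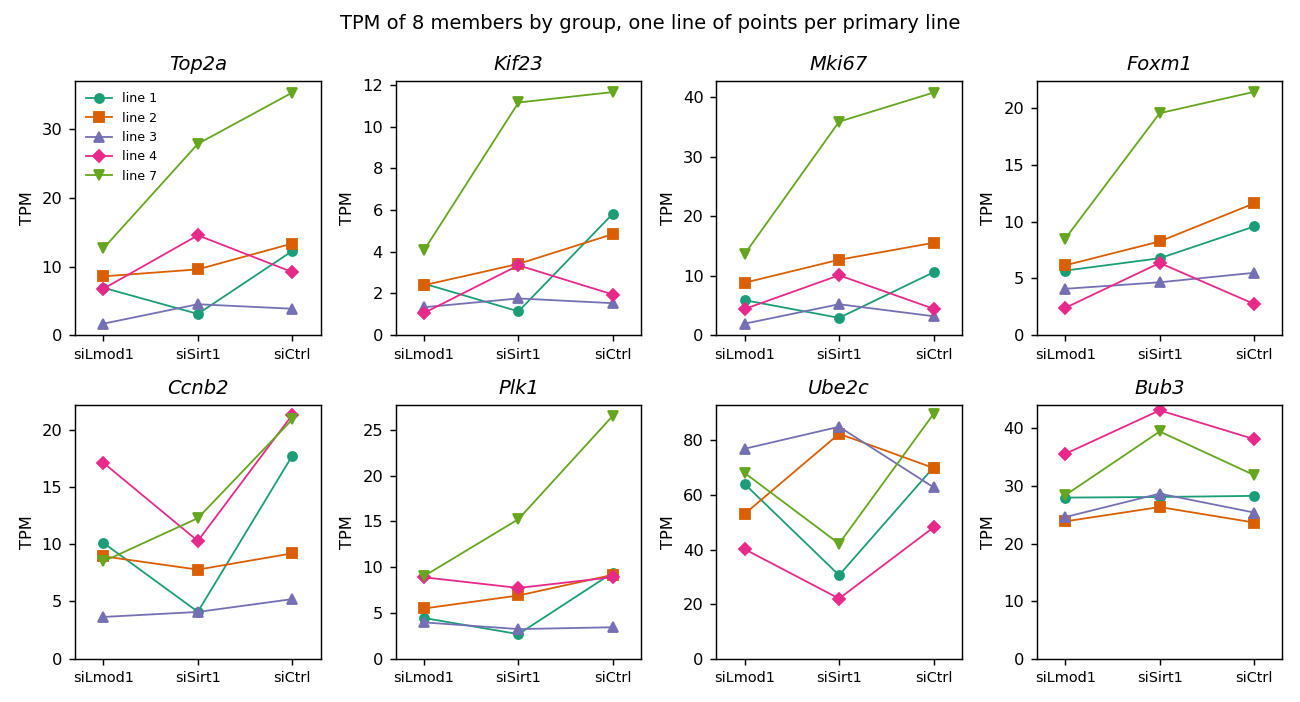
TPM (y axis) of 8 members in siLmod1, siSirt1 and siCtrl, with each primary line joined across the groups. Line 7 has the highest Top2a, Kif23, Mki67, Foxm1 and Plk1 in siCtrl, Ube2c follows another order of lines, and Bub3 stays between 23.7 and 43.1 TPM.

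Other genes of the pathway were examined as lists, to be read beside the 16.5% of all genes that fell and the 12.9% that rose in the same fit. Like the members, the lists were chosen with earlier results of these data known, so they are no independent check. Of 50 further mitotic genes, all tested, 25 fell in siLmod1 and 1 rose, with a median log2 fold change of -0.59, close to that of the 40. Among those that fell were the kinesins Kif14 (-1.35) and Kif4 (-0.97) and the G2 regulator Gtse1 (-0.996). The one that rose, Zwint, a kinetochore protein, was at 0.40 and stood at 201 ± 121 TPM in siLmod1 and 152 ± 102 TPM in siCtrl (SD, n = 5), far above all 40 members. Of 11 regulators of entry, the phosphatases Cdc25a, Cdc25b and Cdc25c, which activate Cdk1, its inhibitory kinase Pkmyt1 and the kinase Mastl fell. Wee1, the other inhibitory kinase of Cdk1, rose at 0.78 (SE 0.08, adjusted p = 0.00012), as did Arpp19 at 0.17. The subunits of the anaphase-promoting complex differed little: 5 of 16 fell, with a median of -0.11, among them Cdc16 (-0.40) and Cdc27 (-0.36).

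Of 20 genes of the DREAM and MuvB complex and the E2F family, which bind these promoters, 7 fell and 6 rose. B-Myb (Mybl2), the activator that joins MuvB in dividing cells, was at -0.75 and the repressor E2f7 at -0.74, both lower. Lin37 (0.33), Lin54 (0.30), E2f1 (0.27), E2f3 (0.42), E2f4 (0.19) and E2f5 (0.83) rose. Of 34 replication and G1/S genes 6 fell and 1 rose, with a median of -0.28, so the count that fell was near the share of all genes. Of 12 D cyclins, their kinases and CDK inhibitors, 7 fell and 2 rose. Those that fell include Ccnd1 (-1.54) and the inhibitors Cdkn1c (-1.54) and Cdkn1a (p21, -0.31), so the list holds both drivers and brakes of the cycle.

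Markers of other cells were read beside these counts, with calls for siLmod1 against siCtrl unless stated. Of 9 smooth muscle and pericyte markers, 7 were tested and 4 fell in siLmod1 with the block (median -0.74). The mean count of Kcnj8 was under the floor. Their summed levels were 2184 to 5523 CPM in siLmod1, 1464 to 4418 in siSirt1 and 2743 to 5893 in siCtrl. Nearly all of that sum was Acta2, at 2137 to 5473 CPM in siLmod1, 1371 to 4331 in siSirt1 and 2689 to 5737 in siCtrl. Of the 9 myoblast and early myocyte markers 4 fell, with summed levels of 12930 to 31610 CPM in siLmod1, 10280 to 21510 in siSirt1 and 13420 to 30730 in siCtrl. Of the 7 fibroblast markers 4 were tested and 2 fell (median -0.35), with summed levels of 2.64 to 21.6 CPM in siLmod1, 4.26 to 48.1 in siSirt1 and 3.62 to 29.0 in siCtrl. Of 5 endothelial markers 2 were tested and 0 were called, with summed levels of 1.23 to 89.4 CPM in siLmod1, 1.05 to 45.4 in siSirt1 and 1.25 to 96.5 in siCtrl, the highest being Tek in line 4 of each group. Of the macrophage and glial markers, 1 and 3 were tested and 0 were called. In siSirt1 against siCtrl, 2 smooth muscle and pericyte markers and 1 myoblast marker were called lower and 1 fibroblast marker higher. That fit called 4.35% of all genes lower and 2.72% higher. The part of these markers in the lower values of the mitotic genes was not tested.

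In siSirt1, 38 of 40 members had a fitted log2 fold change below 0 and the lines differed in direction. Whether any was called depended on the fit: edgeR called none in the 10 libraries compared, with the filter on low counts, and some in other fits. The B-type cyclins Ccnb1 and Ccnb2, the kinase Plk1, the checkpoint gene Bub1b and the spindle protein Prc1 were lower in siSirt1 in 5 of 5 lines, as were Aurka, Bub1 and Cdca3. These are 8 of 40, against 12.7% of all genes, and on the TPM scale Bub1 and Cdca3 were higher in line 4. edgeR called 0 of 40 with the groups alone, where it called 0.114% of all genes lower and 0.0134% higher, and before adjustment 1 member, Ccnb2, was under 0.05, against 9.66% of all genes. The blocked fit called 0 of 40, where 4.35% of all genes were called lower and 2.72% higher, and before adjustment 8 members were under 0.05, a smaller share than the 25.2% of all genes. DESeq2 called 0 with the groups alone, where it called 1.6% of all genes lower and 1.01% higher. With the block it called 5 lower (Ccnb1, Ccnb2, Plk1, Bub1b and Prc1), where it called 8.1% of all genes lower and 5.42% higher. All 15 libraries in 1 blocked fit gave 2 calls (Ccnb2 and Prc1), where 8.56% of all genes were called lower and 7.53% higher. With the block and no filter, edgeR called 10 lower (Ccnb1, Ccnb2, Plk1, Bub1b, Ube2c, Cdca3, Cenpa, Tpx2, Prc1 and Anln), where it called 4.09% of all genes lower. The median log2 fold change was -0.47 with the groups alone and -0.49 with the block, against 0.02 and 0.01 over all genes.

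The lines moved these values by different amounts. The median over the members was -1.93, -0.38, 0.11, 0.02 and -0.45 in lines 1, 2, 3, 4 and 7, so 40 of 40 members were lower in line 1 and only 15 and 18 were lower in lines 3 and 4. With the block, leaving out line 1 moved the median most, to -0.22. With the groups alone line 7 moved it most, to -0.996 without its siSirt1 library and to 0.03 without its siCtrl library. The siSirt1 library of line 1 is also the one whose pairing was weakest, correlating over all genes at 0.253 and 0.277 with the other 2 libraries of line 1 and at 0.269 and 0.200 with those of line 3. No member had siSirt1 and siCtrl groups that did not overlap, which 0.878% of all genes had with siSirt1 lower and 2.33% with siSirt1 higher.

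Ccnb2 had 4.101, 7.78, 4.09, 10.3 and 12.3 TPM in siSirt1 lines 1, 2, 3, 4 and 7, against the siCtrl values above, with a blocked log2 fold change of -1.04 (SE 0.30, adjusted p = 0.077). It was the largest difference of the 40 in siSirt1, and lines 1, 4 and 7 carried it. Ccnb1 had 1.69, 3.73, 2.197, 7.68 and 12.96 TPM in siSirt1, at -0.81 (SE 0.29, adjusted p = 0.13), and Cdk1 4.88, 9.45, 5.12, 21.6 and 26.4 TPM, at -0.58 (SE 0.26, adjusted p = 0.21). Line 1 of siSirt1 was the lowest of all 15 libraries for both. Ccna2 was at -0.57.

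Plk1 had 2.69, 6.91, 3.25, 7.74 and 15.2 TPM in siSirt1, at -0.79 (SE 0.27, adjusted p = 0.12), and line 3 differed least from siCtrl. Bub1b had 3.82, 6.52, 2.58, 5.75 and 8.53 TPM in siSirt1, at -0.73 (SE 0.22, adjusted p = 0.087), and Cdc20 had 7.17, 17.2, 8.64, 27.3 and 34.7 TPM, at -0.53 (SE 0.29, adjusted p = 0.29). For Cdc20 lines 3 and 4 were higher in siSirt1, line 2 was almost equal, and lines 1 and 7 were lower. Prc1 had 1.87, 4.17, 2.45, 16.1 and 10.6 TPM in siSirt1, at -0.73 (SE 0.20, adjusted p = 0.068), the smallest p of the 40. Again line 4 was the highest in the group and again each line was below its control.

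The members with the smallest p in siLmod1 had the following values in siSirt1, where both comparisons share the siCtrl libraries. Top2a had 3.09, 9.59, 4.5, 14.6 and 27.9 TPM in siSirt1, at -0.50 (SE 0.33, adjusted p = 0.39), Mki67 2.897, 12.7, 5.19, 10.1 and 35.9 TPM, at -0.21 (SE 0.38, adjusted p = 0.78), and Kif23 1.14, 3.42, 1.76, 3.35 and 11.2 TPM, at -0.48 (SE 0.40, adjusted p = 0.49). Each was lower in lines 1, 2 and 7 and higher in lines 3 and 4. Foxm1 had 6.77, 8.26, 4.66, 6.36 and 19.6 TPM in siSirt1, at -0.19 (SE 0.23, adjusted p = 0.65), and was higher only in line 4. Ckap2 had 13.6, 10.4, 9.62, 17.6 and 39.8 TPM in siSirt1, at -0.21 (SE 0.13, adjusted p = 0.36), and Bub3 had 28.1, 26.4, 28.7, 43.1 and 39.5 TPM, at 0.02 (SE 0.08, adjusted p = 0.9). Ttk, at 0.09, and Bub3 were the 2 members with a value above 0. The members not named in this comparison lay between -0.87 (Nuf2) and -0.11 (Cdca2), and none passed.

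**Figure D5:**
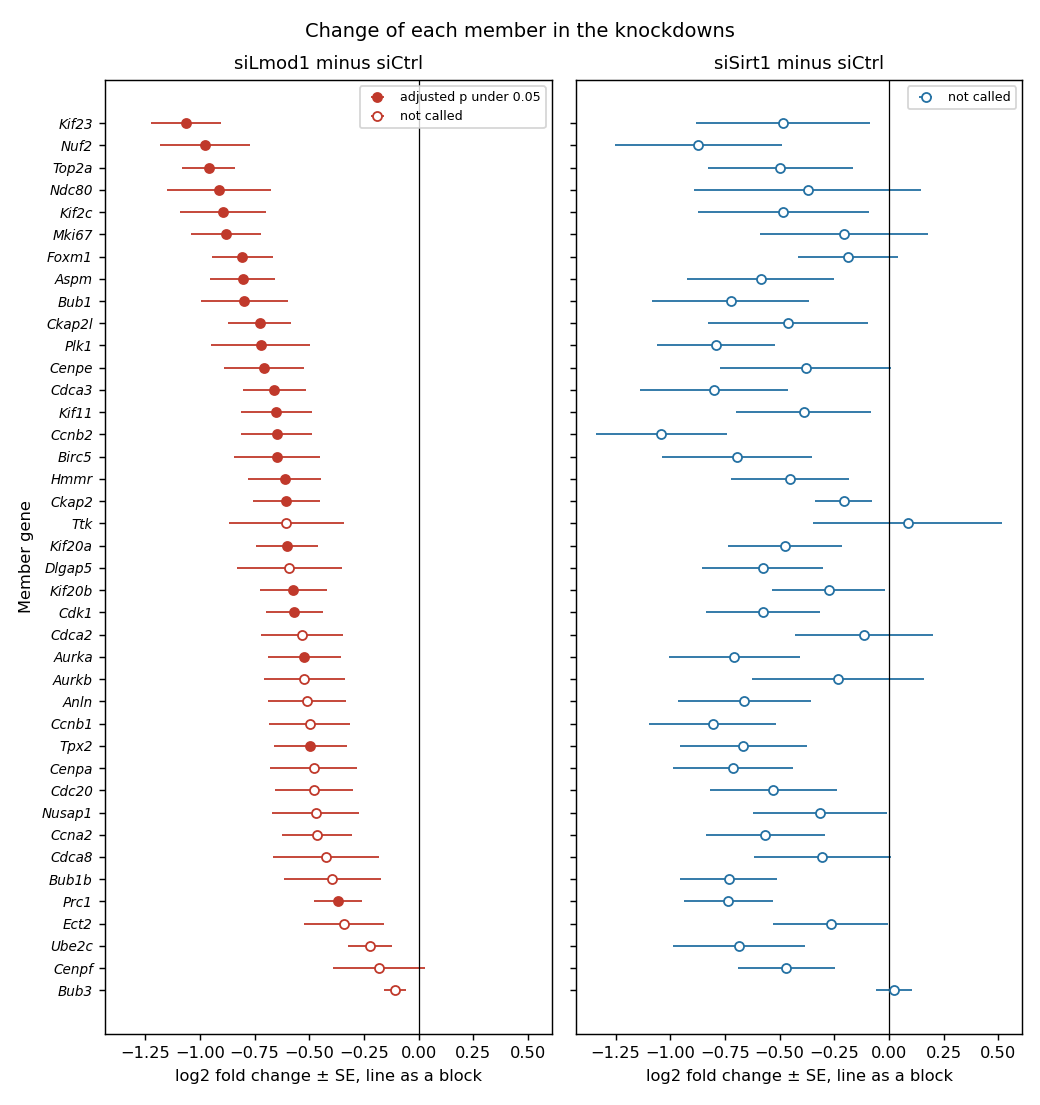
Log2 fold change ± SE of the 40 members with the line as a block (x axis), for siLmod1 minus siCtrl (left) and siSirt1 minus siCtrl (right), sorted by the left panel; filled points had a Benjamini-Hochberg adjusted p under 0.05 over all genes. On the left 24 members are filled and all 40 lie below 0, and on the right none is filled and the standard errors are wider.

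In the lists, 1 of the 50 further mitotic genes fell in siSirt1 (Gas2l3, a cytoskeletal linker, at -0.94, adjusted p = 0.021) and 0 rose, with a median of -0.33. That fit called 4.35% of all genes lower and 2.72% higher. None of the 11 regulators of entry, 16 complex subunits, 20 DREAM and E2F genes and 34 replication genes passed. Their medians were -0.03, -0.03, -0.12 and -0.0047. Of the D cyclins and CDK inhibitors 1 fell, Cdkn1a, at -0.76 (adjusted p = 0.014), with 2260 ± 766 TPM in siSirt1 and 3391 ± 812 TPM in siCtrl (SD, n = 5).

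The knockdowns were also set against each other. Few or none of the 40 members were called between siSirt1 and siLmod1: edgeR called 0 with the groups alone, where it called 0.847% of all genes lower and 0.68% higher. With the block it called 0, where it called 8.43% lower and 7.43% higher, and before adjustment 1 member, Foxm1, was under 0.05, against 31.9% of all genes. With the block and no filter it called 1 (Foxm1, higher), where it called 4.59% of all genes higher. DESeq2 called 0 with the groups alone, where it called 3.97% of all genes lower and 3.69% higher, and 1 (Foxm1, higher) with the block, where it called 11.1% of all genes higher. The blocked median was 0.06, with 23 members above 0 and 17 below. The groups overlapped for all 40, while 2.14% of all genes lay wholly lower in siSirt1 and 3.34% wholly higher. The standard errors ran up to 0.57 (Ndc80), so a missed call does not show that the knockdowns act alike.

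Foxm1 was the one member higher in siSirt1 than in siLmod1 in 5 of 5 lines, a pattern that 15.2% of all genes had, at 0.58 (SE 0.20, adjusted p = 0.079). Mki67 was at 0.63 (SE 0.34, adjusted p = 0.24), Ttk at 0.61 (SE 0.43, adjusted p = 0.37), Top2a at 0.45 (SE 0.35, adjusted p = 0.42) and Ckap2 at 0.37 (SE 0.19, adjusted p = 0.21). Mki67, Top2a and Ckap2 were higher in siSirt1 in lines 2, 3, 4 and 7, and lower in line 1. Without line 1, the blocked fit called 2 of 40, Mki67 and Top2a, higher in siSirt1, near the 3.15% of all genes it called higher. The members on the other side of 0 included all 4 cyclin and Cdk1 genes, with Ccnb2 at -0.42 (SE 0.29, adjusted p = 0.36) and Ccnb1 at -0.36 (SE 0.30, adjusted p = 0.45), and Prc1 at -0.39 (SE 0.19, adjusted p = 0.21). The others of those 17 were Plk1, Aurka, Bub1b, Cdc20, Ube2c, Birc5, Cdca3, Cenpa, Cenpf, Tpx2, Dlgap5 and Anln.

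Line 1 differed in sign from the other lines. The median difference over the members, siSirt1 minus siLmod1, was -1.26, 0.12, 0.17, 0.27 and 0.83 log2 CPM in lines 1, 2, 3, 4 and 7. Without line 7 the blocked median was -0.14. Outside the 40, 4 of the 50 further mitotic genes were higher in siSirt1 than in siLmod1 with the block (Kif4, Zwilch, Gtse1 and Psrc1) and 2 lower (Zwint and Gas2l3). The same fit called 7.43% of all genes higher and 8.43% lower, so these counts were near or below those shares. Among the 50 genes Psrc1, a spindle microtubule protein, was the one called with the groups alone, at 37.7 ± 12.02 TPM in siSirt1 and 14.2 ± 4.08 TPM in siLmod1 (SD, n = 5).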

How the data were processed

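RNA was measured in 15 libraries, 5 per group. The raw counts per Ensembl gene are those the authors deposited, and so are the TPM values. Per the submitters' processing notes, DESeq2 and the build mm10 were used, while neither aligner nor counting tool is named by the sources used here. The kit, per the labels' protocols, was TruSeq v2 on polyadenylated RNA. It does not mark strand. Identifiers were paired with symbols through GENCODE M21 (48970 of 49315), and identifiers with no symbol held 0.032% of counts. Each library held the same values in every table that lists it.

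For each pair of groups, genes were filtered with filterByExpr, scaled by TMM and tested with edgeR 4.0.16 (R 4.3.3; quasi-likelihood F test, groups alone, Benjamini-Hochberg over all genes, called under 0.05). DESeq2 1.42.0, other scalings and designs were alternatives, and the scripts were tested on simulated data. Log2 fold changes are first group minus second. The floor of 3 counts was 0.0893 to 0.143 CPM, for counting error only. Each number is taken as 1 primary line: after the group means were removed, libraries of 1 number correlated across 15716 genes at 0.253 to 0.862 (15 pairs), and those of different numbers at -0.493 to 0.269 (60 pairs). Values with this block therefore stand beside the others. With the groups alone, the p-values cover the spread between these 5 lines. With the block, that spread is taken out, and they cover only how the differences within lines vary.

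Members and lists were chosen with earlier results of these data known. Values per library are given for Cdk1, Ccnb1, Ccnb2, Cdc20, Plk1, Bub3, Mki67, Top2a, Kif23 and Foxm1 and for the 3 members with the smallest blocked p in each comparison. Members against the sign of the blocked median are named. Ube2c was added, and genes of the lists were named, after their values were seen. The DESeq2-normalized tables were not used.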

Additional observations from a re-analysis of the deposited data

Results flagged for a closer look

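Among 45 groups of 5 values examined, 7 held a value far from the other 4. The rule flags about 1 in 20 groups by chance when groups are independent. These groups share the same libraries and hold members that vary together, so the count cannot be set against that rate. Line 7 held 5 of the 7 flagged values. They were Kif23 at 11.2 TPM, Foxm1 at 19.6 TPM and Ckap2 at 39.8 TPM in siSirt1, and Plk1 at 26.6 TPM and Ckap2 at 42.1 TPM in siCtrl. Prc1 stood at 23.5 TPM in line 4 of siLmod1, where the siSirt1 and siCtrl libraries of that line held 16.1 and 22.6 TPM. The median difference of the 40 members between siSirt1 and siCtrl was -1.93 log2 CPM in line 1, below the other 4 lines. That siSirt1 library is the one with the weakest correlation with its own line, and the part of this in the result was not tested.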

How the results depend on the processing

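With the replicate block, the count of members called lower in siLmod1 was 24 in edgeR and 27 in DESeq2, against 0 without it in both. DESeq2's blocked fit gave a smallest adjusted p of 8.6e-14 for a member, hard to credit from 5 lines, so its 27 adds little. In edgeR, all 15 libraries in 1 blocked fit gave 1, where 5.26% of all genes were called lower. Leaving out 1 line at a time gave 14 (without line 1, where 11% of all genes were called lower) to 31 (without line 3, where 14.1% were). In siSirt1 against siCtrl the blocked count was 0, with 2 when all 15 libraries were fitted and 5 in DESeq2. In siSirt1 against siLmod1 the blocked count of higher members was 0, with 1 in DESeq2 and 0 to 2 with 1 line left out. Leaving out 1 library, the median log2 fold change ran from -0.95 to -0.24 in siLmod1 against siCtrl, from -0.996 to 0.0267 in siSirt1 against siCtrl and from -0.21 to 0.42 in siSirt1 against siLmod1. With the block and 1 line left out, the last ran from -0.14 to 0.31. Other scaling (RLE) and no filter, both with the groups alone, left the counts called at 0 and the signs of the medians as they were. Some alternatives were added after the data were seen. With the block, RLE changed none of these counts. No filter with the block gave 38 members lower in siLmod1 against siCtrl, 10 lower in siSirt1 against siCtrl and 1 higher in siSirt1 against siLmod1. The 38 carries little weight, since that fit gave a p too small to be credible from 5 lines. The 10 and the 1 come from the same setting and call for the same caution. There edgeR's smallest adjusted p of a member was 0.0023 (Prc1) in siSirt1 against siCtrl and 0.04 (Foxm1) in siSirt1 against siLmod1. Leaving out Ube2c changed the sign of no median. Of the comparisons of a named member under an alternative, 848 kept direction and call, 15 lost a call, 33 gained one, 40 changed sign between values that were not called, and 0 changed sign after a call. The cause was not tested. Every member had at least 12 counts in each library.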
